A study of Homo sapiens with 2 samples.

Results

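The BCL2 family decides whether a cell commits to the mitochondrial pathway of apoptosis. Its transcription was read at 10 genes in K562, a human leukaemia cell line of erythroid character that carries the BCR-ABL fusion, by precision run-on sequencing (PRO-seq). The genes were chosen by name and are BCL2L1, MCL1, BCL2, BAX, BAK1, BCL2L11, BBC3, PMAIP1, BAD and BIK, and each matched 1 of the 36814 windows of the deposited table by its gene name. In PRO-seq, polymerases that are engaged on DNA extend their RNA with biotinylated nucleotides in permeabilised cells (here for 5 min at 30 °C), and the labelled RNA is isolated and sequenced. The series holds 2 libraries, 1 from untreated K562 cells and 1 from K562 cells kept in 0.1% DMSO, a common drug solvent, for 1 h. A difference between them therefore compares 2 libraries, and no value has a replicate check or a p-value.

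Proteins of the family share short BCL2 homology (BH) segments and act on one another at the outer mitochondrial membrane. The pro-survival proteins BCL-XL (gene BCL2L1), MCL1 and BCL2 bind and restrain the effectors BAX and BAK1, which otherwise form the pores that release cytochrome c. The BH3-only proteins BIM (BCL2L11), PUMA (BBC3), NOXA (PMAIP1), BAD and BIK carry stress signals to both groups. In the erythroid lineage BCL-XL is known as a main survival protein, and BBC3, PMAIP1 and BAX are known targets of the tumour suppressor p53, which K562 is known to lack in functional form.

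Each window spans 6000 bases around an annotated gene start on hg38, and reads in bases shared by windows were not counted: all 1154 windows covered entirely by others held 0 reads. The totals were 2136291 untreated and 4154920 DMSO reads, of which windows over ribosomal RNA repeats took 71.5% and 42.2%. Levels are given in CPM, the reads scaled to the library total, and per kb of unshared window where genes are compared. Library ratios are log2 DMSO/untreated after TMM scaling, relative to the median of the 6591 windows past an expression floor, set at 100 reads in all and a mean level of 5 CPM. That median window held 4.72 DMSO reads per untreated read. A level of 1 CPM in both libraries was met by 8 of 10 erythroid marker windows, by 3 of 10 lymphoid and myeloid windows and by 1 of 18 neural and glial windows. The neural and glial windows held 7 untreated reads (3.28 CPM in sum) and 4040 DMSO reads (972 CPM), of which CDR1 had 0 and 2985. In these bulk libraries, a different number of cells of a type and a different amount of RNA per cell cannot be told apart. The source of the neural and glial reads was not tested, and it may bear on any DMSO level or ratio given here.

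The windows differed in how much of each gene could be counted. For 7 members none of the 6000 bases was shared with another counting window. The window of BCL2L1 (chromosome 20, 31720990 to 31726989, minus strand) shared 3517 bases with that of ABALON, an antisense noncoding RNA. The RefSeq start of BCL2L1 at 31723963 lay inside the shared part, and the 2483 bases left were all upstream, with 0 of them in the gene. MCL1 (chromosome 1, 150576739 to 150582738, minus strand) lost 814 bases inside the gene to ADAMTSL4-AS1. BCL2L11 (chromosome 2, 111116378 to 111122377, plus strand) lost 3030 upstream bases to ACOXL-AS1, and its RefSeq start lay 1537 bases downstream of the window centre but in unshared sequence.

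**Figure D1:**
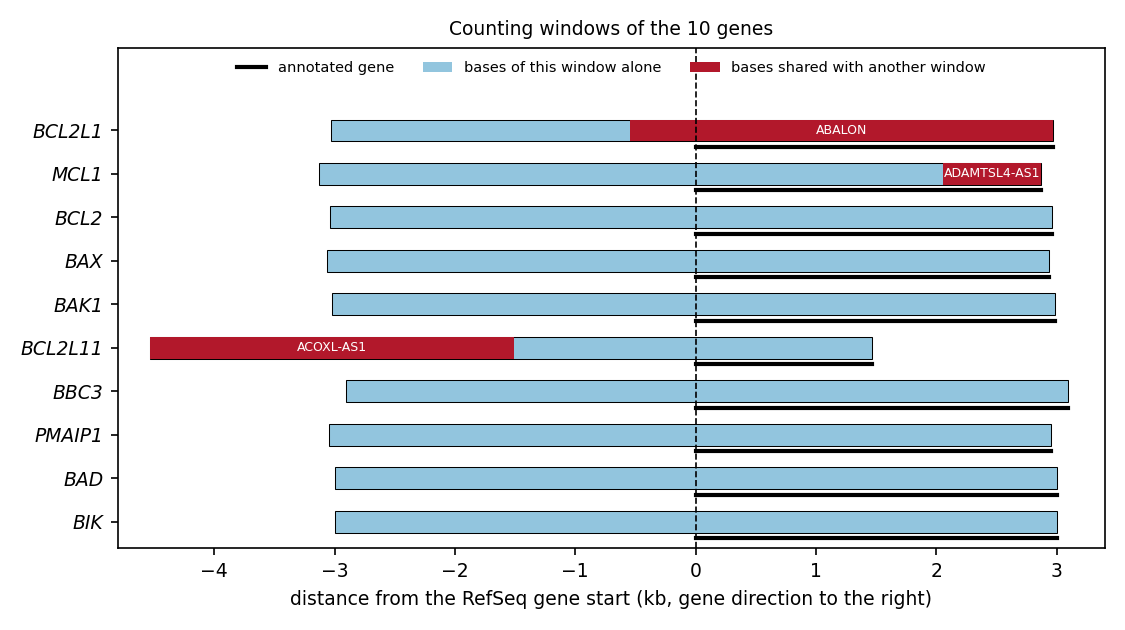
Counting window of each member drawn against the distance from its RefSeq start in kb, with the gene running to the right; blue bases belong to the window alone, red bases are shared with the named window, and the black line is the annotated gene. The start of BCL2L1 lies in red, where no reads were counted, while the other 9 starts lie in blue.

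The sequence just around an annotated start is shown for 5 members on which the values below turn: BCL2L1, whose start region was not counted, BCL2 with the highest DMSO/untreated ratio, BBC3 with the lowest past the floor, BCL2L11 as the only member past the floor above the median window, and BAX for its repeated CACGTG. RefSeq (GRCh38.p14) gave 10 start regions of 250 bases before and 50 after an annotated start for 8 of the members. MCL1 and BIK were not matched. Capitals mark matches on either strand to 8 short motifs: the TATA box letters TATAAA, the CAAT box letters CCAAT, the GC box letters GGGCGG, the STAT type TTCNNNGAA, the GATA type AGATAA, the CRE type TGACG, the E box CACGTG and the forkhead type GTAAACA. An E box match can overlap a CRE type match, since the E box ends in the letters with which TGACG begins. All are minus-strand genes except BAX and BCL2L11, and each sequence reads 5′ to 3′ along the gene. The regions are chr20:31723914-31724213 for BCL2L1, chr18:63319720-63320019 for BCL2, chr19:48954625-48954924 for BAX, chr2:111120664-111120963 for BCL2L11 and chr19:47232618-47232917 for BBC3.
BCL2L1: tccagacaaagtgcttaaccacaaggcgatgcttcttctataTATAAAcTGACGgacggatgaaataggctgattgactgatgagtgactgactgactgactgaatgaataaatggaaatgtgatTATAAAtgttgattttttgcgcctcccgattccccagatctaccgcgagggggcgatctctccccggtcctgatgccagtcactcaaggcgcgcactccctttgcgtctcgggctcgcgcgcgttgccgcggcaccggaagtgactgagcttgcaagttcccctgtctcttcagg
BCL2: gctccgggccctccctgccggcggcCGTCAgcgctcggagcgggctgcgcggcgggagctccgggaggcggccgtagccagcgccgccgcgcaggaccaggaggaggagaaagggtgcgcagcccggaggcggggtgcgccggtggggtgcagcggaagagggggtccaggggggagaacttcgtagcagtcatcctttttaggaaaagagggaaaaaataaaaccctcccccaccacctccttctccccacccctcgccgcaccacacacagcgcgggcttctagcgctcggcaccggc
BAX: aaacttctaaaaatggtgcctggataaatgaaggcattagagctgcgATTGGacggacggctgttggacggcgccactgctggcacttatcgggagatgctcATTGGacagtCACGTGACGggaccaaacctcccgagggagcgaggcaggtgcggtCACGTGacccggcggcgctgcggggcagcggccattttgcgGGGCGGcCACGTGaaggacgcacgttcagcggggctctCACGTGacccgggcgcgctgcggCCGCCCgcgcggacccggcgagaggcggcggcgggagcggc
BCL2L11: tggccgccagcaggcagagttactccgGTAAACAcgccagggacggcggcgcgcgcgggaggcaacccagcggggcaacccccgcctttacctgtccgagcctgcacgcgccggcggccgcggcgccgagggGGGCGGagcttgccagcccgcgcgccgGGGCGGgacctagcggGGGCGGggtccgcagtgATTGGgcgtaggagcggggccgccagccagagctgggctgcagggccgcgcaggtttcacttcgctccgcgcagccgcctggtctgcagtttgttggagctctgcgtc
BBC3: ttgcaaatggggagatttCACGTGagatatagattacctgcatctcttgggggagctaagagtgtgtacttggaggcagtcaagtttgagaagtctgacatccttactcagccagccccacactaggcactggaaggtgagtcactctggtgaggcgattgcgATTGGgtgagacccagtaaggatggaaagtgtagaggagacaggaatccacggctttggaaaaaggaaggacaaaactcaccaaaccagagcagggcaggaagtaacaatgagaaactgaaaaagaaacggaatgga

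The start regions were not alike in base composition. BBC3 had 48% G and C and a CpG ratio (observed over expected CpG pairs) of 0.311, and BAK1 58.7% and 0.282, against medians of 58.7% and 0.579 over 35116 start regions of the same length. PMAIP1 with 71.3% and 1.10 and BAX with 67.3% and 1.15 had a CpG ratio above 97.6% and 98.6% of all regions. A gene was counted for a motif when any of its regions matched, and BCL2L1 and BAD had more regions than the other genes, while the shares are of single regions. GGGCGG was found for 6 of 8 genes, where 44.95% of all regions hold it. The GGGCGG match of BCL2L1 lies in its region 31722819 to 31723118, which is not shown above. CCAAT was found for 5 of 8 against 34.6%, and TGACG for 5 of 8 against 24.6%. BAX held 4 copies of CACGTG and BBC3 1 copy, a motif in 7.26% of regions. BCL2L1 alone held TATAAA (2 copies, in 11.5% of regions), and BCL2L11 alone held GTAAACA (1 copy, in 3.42%). TTCNNNGAA (7.66% of regions) and AGATAA (10.3%) had no match in these 8 genes. A match is a description of letters and not a binding site.

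Transcription differed widely along the family, from a few reads at BIK to 607 DMSO reads at BAD. Among the pro-survival genes MCL1, which encodes a short-lived protein, had 134 untreated and 534 DMSO reads. Its level per kb was 12.1 CPM untreated (interval 10.1 to 14.3) and 24.8 CPM with DMSO (interval 22.7 to 27.0). MCL1 thus lay above 97.9% of untreated and 97.4% of DMSO windows with at least 1000 unshared bases. BCL2 (chromosome 18, 63317129 to 63323128, minus strand) had 7 untreated and 88 DMSO reads in a window that shares no base. Per kb the level at MCL1 was 22.1-fold that at BCL2 in the untreated library (interval 10.5 to 56.2) and 7.02-fold with DMSO (interval 5.59 to 8.90), and these intervals do not include 1.

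BCL2L1 had 7 untreated and 10 DMSO reads, all from the bases upstream of its start. This count is therefore not a level of the gene. The ABALON window, whose 2483 unshared bases from 31718507 to 31720989 all lie inside BCL2L1, had 44 untreated and 127 DMSO reads, or 8.30 and 12.3 CPM per kb. The strand setting of the count is not given in the sources used here. The 321 windows covered entirely by windows of the opposite strand alone also held 0 reads, so shared bases were left out whatever the strand. The ABALON reads are therefore not assigned here to BCL2L1 or to its antisense partner. In the same way the ADAMTSL4-AS1 window, with 204 and 509 reads, holds 2181 unshared bases of the MCL1 gene. The count of every member may likewise hold reads of both strands, and is not a level of sense transcription alone. Windows also reach upstream: at BAX 3060 of the 6000 unshared bases lie outside the gene.

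Both effectors were transcribed, BAX above BAK1 beyond counting error with DMSO only; whether that differs between the libraries was not tested. BAX (chromosome 19, 48951815 to 48957814, plus strand) had 66 untreated and 241 DMSO reads, and BAK1 (chromosome 6, 33577294 to 33583293, minus strand) had 47 and 153. Per kb BAX was at 5.15 and 9.67 CPM and BAK1 at 3.67 and 6.14 CPM. The ratio of BAX to BAK1 was 1.40 in the untreated library, with an interval that includes 1 (0.951 to 2.09), and 1.58 with DMSO (interval 1.28 to 1.94).

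The BH3-only genes spanned the whole range. BAD (chromosome 11, 64281705 to 64287704, minus strand), whose protein is switched off by survival-factor signalling, had 223 untreated and 607 DMSO reads, the most of any member. Its window also lies within the annotated span of GPR137 on the opposite strand, so its reads may come from either gene. BCL2L11 had 47 and 283 reads in 2970 bases, or 7.41 CPM per kb untreated and 22.9 with DMSO. PMAIP1 (chromosome 18, 59896948 to 59902947, plus strand) had 68 and 171 reads, 5.30 and 6.86 CPM per kb. BBC3 (chromosome 19, 47229767 to 47235766, minus strand) had 77 and 130 reads, 6.01 and 5.21 CPM per kb. BIK (chromosome 22, 43107750 to 43113749, plus strand) had 2 untreated and 4 DMSO reads over 6000 unshared bases, and both libraries put it lowest in the family.

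**Figure D2:**
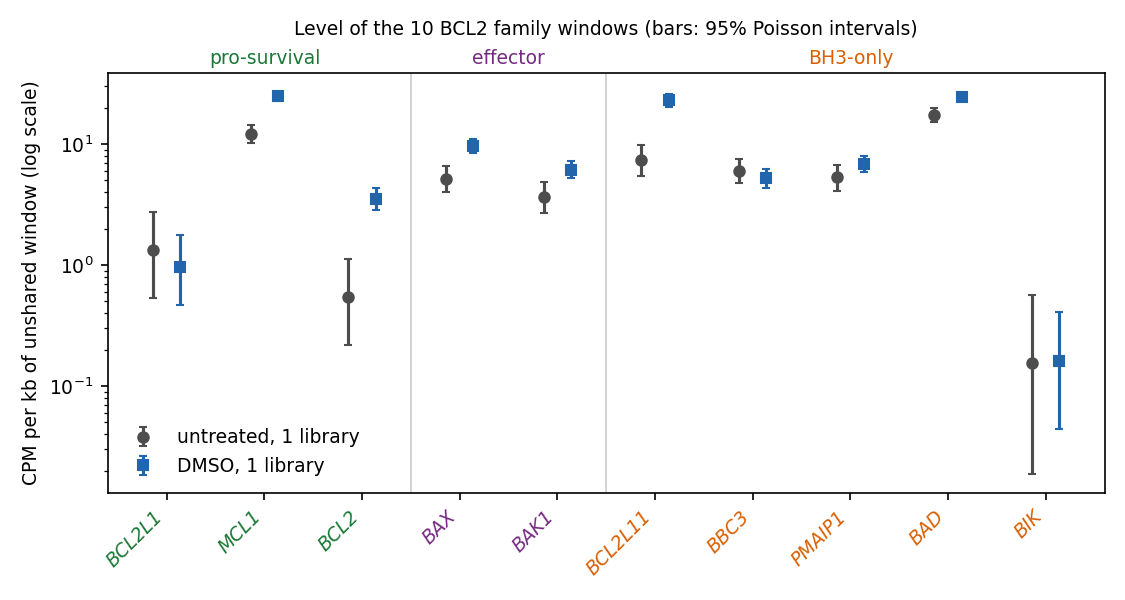
Level of each member in CPM per kb of unshared window on a log axis, with 1 point per library and exact Poisson 95% intervals, which cover counting error only; CPM of the libraries are not directly comparable. MCL1 and BAD lie highest in the untreated library at 12.1 and 17.4 CPM per kb, BIK lies lowest at 0.156, and the points of BCL2L1 come from bases outside the gene.

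In the untreated library the order per kb was BAD, MCL1, BCL2L11, BBC3, PMAIP1, BAX, BAK1, BCL2L1, BCL2 and BIK. Only the first pair of steps there, BAD to MCL1 and MCL1 to BCL2L11, had intervals that did not overlap. With DMSO the order was MCL1, BAD, BCL2L11, BAX, PMAIP1, BAK1, BBC3, BCL2, BCL2L1 and BIK. The first 3 did not differ beyond their intervals, nor did PMAIP1 from BAK1 or BAK1 from BBC3. Of the 45 pairs of members 39 stood in the same order in both libraries. These orders and pairs include BCL2L1, whose place comes only from bases upstream of its start and is not that of the gene. BCL2L11 and BBC3 stood closer untreated than with DMSO: BCL2L11 was 1.23-fold BBC3 per kb in the untreated library (interval 0.839 to 1.79) and 4.40-fold with DMSO (interval 3.56 to 5.46). The level of BCL2L11 was divided by 2970 bases, against 6000 for BBC3, PMAIP1, BAX and BAK1, and its places depend on that division. In undivided reads BCL2L11 had 47 untreated, below BBC3 (77), PMAIP1 (68) and BAX (66). With DMSO it had 283, above BBC3 (130), PMAIP1 (171) and BAX (241).

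The DMSO and untreated libraries were set side by side, 1 against 1. Past the floor were 7 members, all but BCL2L1, BCL2 and BIK; BCL2 missed it with 95 reads, while BAK1 had the fewest reads inside it with 200. Of the 7 members, 6 lay below the median window, BBC3, PMAIP1, BAD, BAK1, BAX and MCL1. The median log2 ratio of all 7 was -0.53, where that of all windows past the floor is 0 by construction. At least 2-fold lower was 1 of 7 (BBC3), against 7.97% of all windows past the floor. At least 2-fold higher was 0 of 7, against 7.04%. The 95% counting interval lay wholly below the median window for 4 of 7 members (BBC3, PMAIP1, BAD and BAK1), against 24.5% of windows, and wholly above it for 0 of 7, against 22.5%. With library totals and no centring the median window itself stood at 1.27 and the members' median at 0.74, so the direction is a direction relative to other windows only.

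BBC3 had the lowest ratio past the floor. Its 130 DMSO reads against 77 untreated made 1.69 DMSO reads per untreated read and a log2 ratio of -1.48 (interval -1.90 to -1.06). That is 2.78-fold lower than the median window, and 2.49% of all windows past the floor lay lower still. The middle 95% of windows ranged from -1.48 to 1.41, so BBC3 stood at the edge of the spread between the libraries. Against the 2987 windows with reads within 1.5-fold of its own, BBC3 stood 1.44 lower on the log2 scale.

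PMAIP1 and BAD followed. PMAIP1 stood at -0.91 (interval -1.32 to -0.48), with 9.88% of windows lower, and BAD at -0.79 (interval -1.02 to -0.57), with 13.0% lower. Both lay within the middle 95% of windows. BAK1 stood at -0.53 (interval -1.02 to -0.03), BAX at -0.37 (interval -0.77 to 0.05) and MCL1 at -0.24 (interval -0.52 to 0.04). For BAX and MCL1 the counting interval thus includes the median window. BCL2L11, the BIM gene, was the member on the other side, at 0.35 with an interval that also includes 0 (-0.10 to 0.83).

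The 3 members under the floor had wider intervals. BCL2 stood at 1.38 (interval 0.31 to 2.77), the highest ratio of the family, from 7 untreated and 88 DMSO reads. The neural and glial markers were high in the same library (14 of 18 at 0 untreated reads, 4 of 18 at 0 DMSO reads), and their part in the BCL2 value was not tested. BCL2L1, outside its gene, stood at -1.66 (interval -3.26 to -0.09), and the ABALON window inside the gene at -0.71 (interval -1.21 to -0.18). BIK at -1.12 had an interval from -4.04 to 2.23 and showed no direction at this depth.

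**Figure D3:**
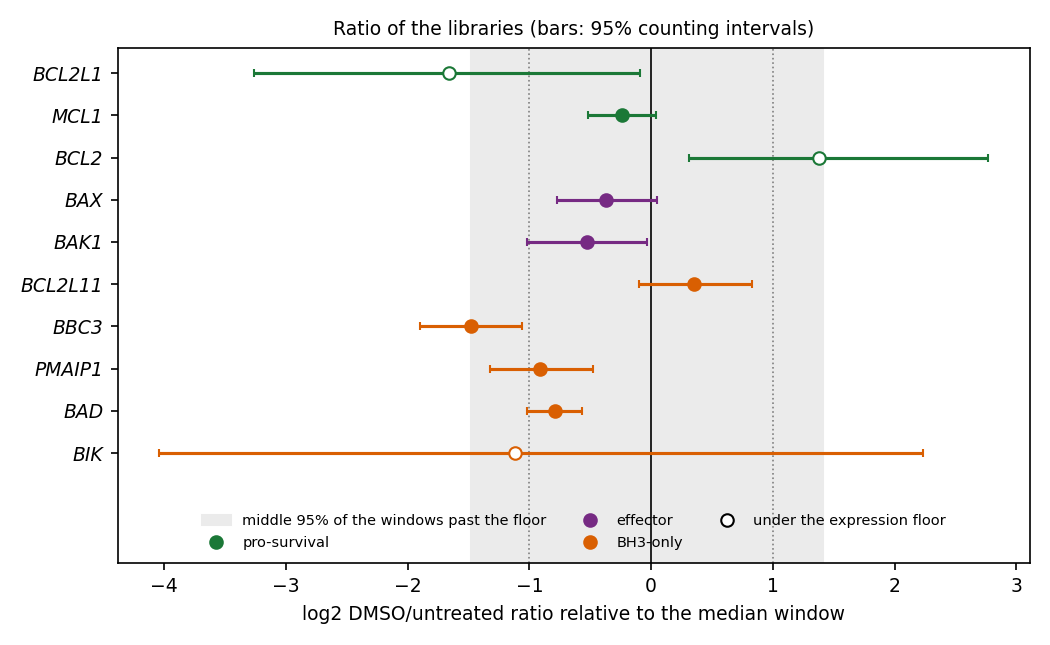
log2 DMSO/untreated ratio of each member relative to the median window (line at 0), with 95% counting intervals; filled points are past the floor, open points under it, the grey band is the middle 95% of all windows past the floor and dotted lines mark 2-fold. BBC3 at -1.48 is the filled point past the lower dotted line, and BCL2L11 at 0.35 is the filled point to the right of 0.

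Summed by role, the BH3-only genes had 417 untreated and 1195 DMSO reads and stood at -0.72 (interval -0.88 to -0.55). The effectors had 113 and 394 reads (-0.44, interval -0.74 to -0.12) and the pro-survival genes 148 and 632 (-0.14, interval -0.40 to 0.12). Of all reads over the 10 windows, the BH3-only genes made up 61.5% untreated (exact binomial interval 57.7 to 65.2) and 53.8% with DMSO (interval 51.7 to 55.9). The pro-survival share was 21.8% (interval 18.8 to 25.1) and 28.5% (interval 26.6 to 30.4), and MCL1 gave most of the pro-survival reads. BAD alone gave more reads than any other BH3-only gene in both libraries. These sums weigh members by reads, and the start of BCL2L1 is missing from them. Erythroid markers lay on the same side as most members: all 5 past the floor were below the median window. For 4 of them the whole interval was below it, against 24.5% of all windows past the floor. The reads of all 10 erythroid marker windows summed to 532 CPM untreated and 786 CPM with DMSO. The part of the erythroid markers in the members' values was not tested.

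**Figure D4:**
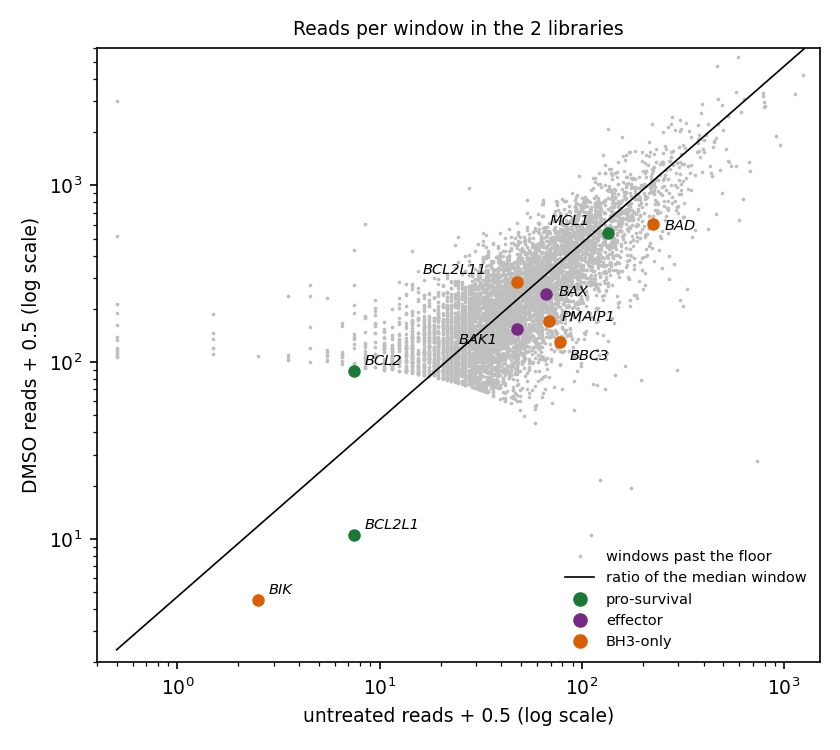
Reads of each window in the untreated (x) and DMSO (y) library, with 0.5 added, on log axes; grey points are windows past the floor, of which 9 lie outside the axes, and coloured points are the 10 members. The line is the ratio of the median window, 4.72 DMSO reads per untreated read; BBC3 with 77 and 130 reads lies below it and BCL2 with 7 and 88 above it.

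Further genes of the pathway were read from lists of relatives, executioners, inhibitors and regulators. Of all windows past the floor 7.97% were at least 2-fold lower and 7.04% at least 2-fold higher. With so few windows past the floor in each list, a single window past 2-fold is not a result about its list. Of 14 other BCL2 relatives 2 passed the floor, none 2-fold away from the median window, and their median was 0.41. BECN1, the autophagy protein that binds BCL2, had 95 untreated and 450 DMSO reads (0.01). BID, which caspase 8 cleaves to link death receptors to mitochondria, had 19 and 159 reads (0.82, interval 0.14 to 1.60). BNIP3L, the mitophagy receptor used in red cell maturation, had 14 and 80 reads and did not pass the floor.

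Of 15 apoptosome and caspase windows 3 passed, and 9 of the 15 had under 1000 unshared bases. CYCS, the gene of cytochrome c, had 67 and 580 reads (0.87, interval 0.51 to 1.26), and ENDOG, a mitochondrial nuclease, 139 and 933 (0.51, interval 0.25 to 0.78). CASP6, an executioner caspase, was the 1 window of this list past the floor at least 2-fold lower, with 180 and 335 reads (-1.34, interval -1.61 to -1.07). These 3 lay on both sides of the median window, and the median of the list was 0.51.

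Among 6 inhibitor of apoptosis genes 4 passed, with a median of -0.21. BIRC5, the survivin gene, was the 1 window past the floor at least 2-fold lower, with 82 and 165 reads (-1.23, interval -1.62 to -0.83). BIRC6 stood at -0.18, BIRC2 at -0.25 and XIAP, the direct caspase inhibitor, at 0.15 with 36 and 189 reads. The intervals of these last 3 include the median window.

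Of 8 death receptor windows 3 passed, with a median of 0.12. CFLAR, whose protein FLIP blocks caspase 8, had 221 and 440 reads and was the 1 of these at least 2-fold lower (-1.24, with an interval wholly below 0). RIPK1 stood at 0.12 and FADD at 0.37, both with intervals that include 0. The 3 of 5 windows that passed among genes of MCL1 turnover all lay above the median window, with a median of 0.44: the deubiquitinase gene USP9X at 0.60 (interval 0.16 to 1.07), UBE2K at 0.44 (interval 0.05 to 0.86) and the ubiquitin ligase gene HUWE1 at 0.09 (interval -0.39 to 0.60).

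Of 13 transcription factors known to act on the family 6 passed, with a median of -0.30. STAT5A, which with STAT5B is known to drive BCL2L1 and MCL1 downstream of BCR-ABL, had 320 and 791 reads (-0.93, interval -1.12 to -0.74). STAT5B stood at -2.18 (interval -2.71 to -1.67) from 64 and 66 reads in 1136 unshared bases. ATF4, the stress factor upstream of several BH3-only genes, had 260 and 1610 reads (0.39, interval 0.20 to 0.59). Past the floor STAT5B was the 1 window of the list at least 2-fold lower, and E2F1 the 1 at least 2-fold higher, with 41 and 466 reads (1.26, interval 0.81 to 1.77).

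**Figure D5:**
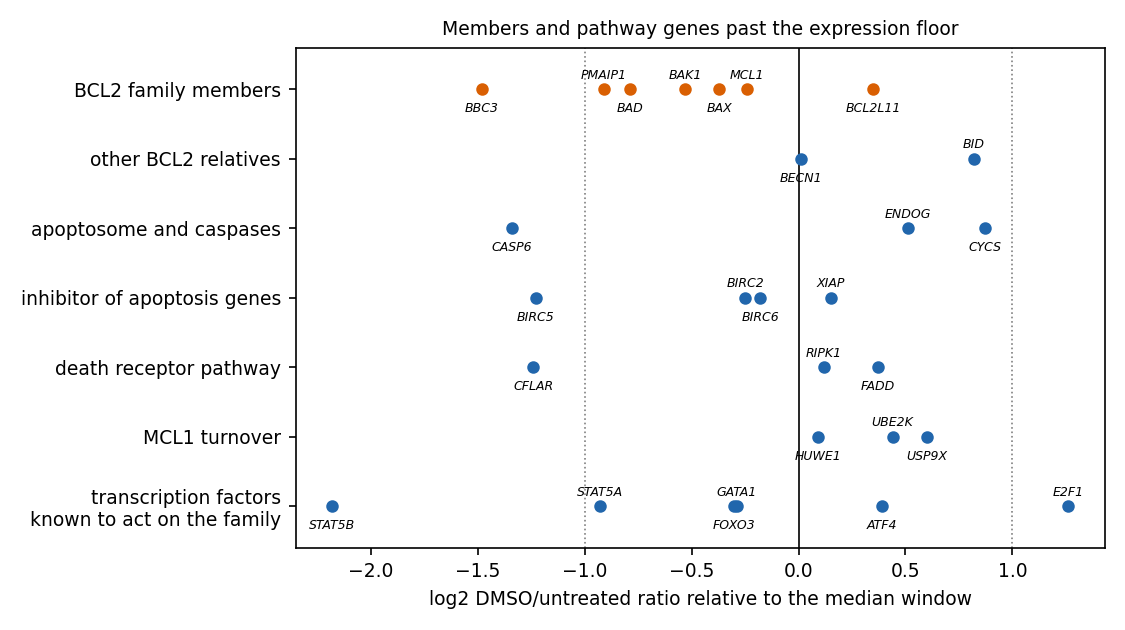
log2 DMSO/untreated ratio relative to the median window (line at 0; dotted lines at 2-fold) for the 7 members and the listed pathway windows past the floor, 1 point per gene. The members lie from -1.48 to 0.35, and CASP6, BIRC5, CFLAR and STAT5B are the pathway points past the lower dotted line.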

How the data were processed

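PRO-seq reads of the 2 libraries were processed on hg38 with Bowtie2 2.3.5, an aligner, and featureCounts 2.0.1, a read counter, per the submitters' processing notes; filters, strand setting and gene annotation are not given in the sources used here. The deposited values are raw read counts per window. The TPM deposited by the authors equalled the CPM in all 36814 windows (tolerance 1e-06) and was not used further.

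The 10 members, and the lists of pathway and marker genes, were chosen with earlier results of these data known. Text names all members, each window that shares bases with one, and from each list the 3 windows of highest mean CPM and the extreme ratios past the floor; GPR137 is named beside these. Some genes that this rule selects are not reported here. Lists were other BCL2 relatives, apoptosome and caspases, inhibitors of apoptosis, death receptor pathway, MCL1 turnover, transcription factors, and erythroid, lymphoid and myeloid, and neural and glial markers.

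Counts were scaled with TMM factors of edgeR 4.0.16 (R 4.3.3), log2 ratios used a prior count of 0.5 reads, and their median over windows past the floor, 0.31, was subtracted. Intervals at 95% are exact Poisson for levels and exact Clopper-Pearson for ratios and shares, and reads carry no molecular identifiers, so both cover counting error only. The ratio step was tested on simulated counts with planted changes and counting error only, so that test does not cover variation between libraries. Protein sequences were not used here, so a planned search for the BH3 core was not made, and with 2 libraries no likeness of pattern between genes was computed.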

Additional observations from a re-analysis of the deposited data

How the results depend on the processing

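No paired analysis was possible because the series holds a single library of either treatment, and for the same reason no replicate could be left out. Windows centred on others of similar reads, and library totals without centring, were alternatives chosen after seeing the data. Of 128 member ratios under the settings that bear on them, 116 stayed inside their counting intervals. DESeq2 1.42.0, upper quartile and total scaling, the prior count of 2 reads and the removal of ribosomal and mitochondrial windows left the counts of members past 2-fold as they were where the median window was subtracted. That subtraction cancels a scaling factor except in the prior count, so the likeness between scalings was fixed in advance. Ratios from those scalings are among the 128. Members at least 2-fold higher numbered 1 at a floor of 1 CPM and 20 reads (BCL2) and 2 with library totals and no centring. Members at least 2-fold lower numbered 0 at a floor of 20 CPM and 400 reads, 5 with no floor, 3 at a 1.5-fold threshold and 0 with library totals and no centring. Past the floor of 20 CPM and 400 reads were 2 members. The DMSO library was also thinned at random to the untreated depth outside ribosomal and mitochondrial windows. Then 5 members passed the main floor, their median ratio was -0.28, and PMAIP1 stood at -1.36, outside its counting interval. With the TMM scale and no centring the median ratio was -0.22. The median ratio of the members, -0.53, was -1.06 with no floor and reversed to 0.74 with library totals and no centring, where BAK1 reversed to 0.74, PMAIP1 to 0.37 and BAD to 0.48; the median window lies at 1.27 on that scale. With the median subtracted BBC3 ranged from -1.87 to -1.37 and BCL2L11 from -0.04 to 0.46. The same order in both libraries held for 17 of 21 pairs of members in windows that share no base. It held for 36 of 45 pairs when levels were taken over the whole window of 6000 bases. Depth limits BCL2L1, BCL2 and BIK most.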

Other observations

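Among the pathway windows, a count of 0 or near 0 often went with little unshared sequence. APAF1, the scaffold of the apoptosome, had 0 reads in both libraries over 27 unshared bases. FAS had 0 and 0 over 809 bases and NFKB1 0 and 0 over 11. These windows show no level of their genes. In contrast, BCL2A1, a pro-survival relative, had 0 untreated and 1 DMSO read, and BMF, a BH3-only relative, 3 and 7, over all 6000 bases of their windows. HRK, the neuronal BH3-only gene, had 5 and 3 reads over 6000 bases. These genes were named after their values were seen.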
